A study of Mus musculus with 9 samples.

Results

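The channel genes examined here encode the subunits of potassium channels, voltage-gated sodium channels, the epithelial sodium channel and voltage-gated calcium channels. They were chosen by gene symbol, as all genes whose symbol begins with Kcn, Scn followed by a digit, or Cacna, Cacnb or Cacng, with the epithelial sodium channel genes (Scnn) added. This gave 141 of the 24594 genes in the count table, of which 98 carried Kcn symbols, 14 were voltage-gated sodium channel genes, 3 were epithelial sodium channel genes and 26 were voltage-gated calcium channel genes. Of the Kcn genes, 93 encode channel or accessory subunits and 5 do not, namely the long noncoding RNAs Kcnq1ot1, Kcnd3os, Kcnmb4os1 and Kcnmb4os2 and the potassium channel regulator Kcnrg.

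RNA was sequenced from BG2 cells, a mouse mammary tumour line of the MMTV-Neu-IRES-Cre (MMTV-NIC) model, in which the promoter of mouse mammary tumour virus drives the oncogene Neu together with Cre recombinase in mammary epithelium. All groups share this background. There were 3 technical replicates of each of 3 groups: Sox10 knockout clone 1, Sox10 knockout clone 2, and the uncloned wild-type population, called the control, whose library names hold NTC. Both clones were grown out of a CRISPR-edited population whose guide RNAs were aimed at exon 3 of Sox10, a factor that controls transcription in the neural crest and in mammary epithelium. Each knockout group is thus 1 clone and the control is 1 uncloned population, so clonal differences and the knockout cannot be told apart within a clone, and p-values measure only the spread between technical libraries.

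Ion channel subunits assemble in the membrane into pores, most of them with accessory subunits that alter gating, trafficking or stability. Potassium channels set the resting potential and repolarise excitable cells, inward rectifiers and two-pore-domain channels carry background current, and calcium-activated channels couple the membrane potential to intracellular calcium. In epithelia such as the mammary gland, the epithelial sodium channel takes up sodium at the apical side while potassium channels recycle potassium and support secretion; voltage-gated sodium and calcium channels are best known from nerve and muscle. Fewer cells that express a gene and less RNA per cell cannot be told apart in these bulk samples.

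The libraries held 65805296 to 83282841 counts. Sox10 itself had 0, 6 and 0 counts in clone 1 and 0, 2 and 2 counts in clone 2, against 16660, 21437 and 26038 counts in the control. Levels are given as CPM, counts relative to a library size scaled by TMM, and changes as log2 fold changes with their standard errors from edgeR's quasi-likelihood test. A gene is said to have risen or fallen where the p-value, adjusted by Benjamini-Hochberg over all 13928 genes tested, was under 0.05. Low counts in the table were mostly even, so a group with 0 counts was set against a floor of 6 counts over its 3 libraries, which is 0.0283 CPM in clone 1, 0.0253 CPM in clone 2 and 0.0268 CPM in the control. Folds against such a group are lower bounds.

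The 4 genes whose promoters are printed first are those of the most abundant potassium channel of the clones and of 3 potassium channels among those that fell most in both clones. Each line holds the 250 bases before the RefSeq start in GRCm38.p6, 5′ to 3′ on the gene's own strand, with searched motifs in capitals. The motifs were the SOX letters ACAAAG and ACAATG, which share their first letters ACAA, the E-box of Snai and Zeb factors CACCTG, the AP-1 site TGAGTCA and the paired Grhl letters AACCGGTT, each on both strands.
Kcnj15, chr16:95257308-95257557, plus strand: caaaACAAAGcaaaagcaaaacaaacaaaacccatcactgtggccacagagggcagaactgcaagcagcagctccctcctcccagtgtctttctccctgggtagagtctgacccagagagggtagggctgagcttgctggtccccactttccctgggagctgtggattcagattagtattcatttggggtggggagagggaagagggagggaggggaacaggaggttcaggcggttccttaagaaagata
Kcnj2, chr11:111065914-111066163, plus strand: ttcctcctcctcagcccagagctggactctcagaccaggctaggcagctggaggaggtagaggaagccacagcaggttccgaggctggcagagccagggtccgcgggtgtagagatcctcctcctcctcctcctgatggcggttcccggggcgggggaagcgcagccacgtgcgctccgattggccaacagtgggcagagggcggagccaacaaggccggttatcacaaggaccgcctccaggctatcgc
Kcnk1, chr8:125994852-125995101, plus strand: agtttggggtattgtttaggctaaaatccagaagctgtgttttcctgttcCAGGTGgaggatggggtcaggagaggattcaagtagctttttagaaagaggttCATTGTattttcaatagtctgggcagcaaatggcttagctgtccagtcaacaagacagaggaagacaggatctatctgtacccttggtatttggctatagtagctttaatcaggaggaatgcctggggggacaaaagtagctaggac
Kcnk5, chr14:20181783-20182032, minus strand: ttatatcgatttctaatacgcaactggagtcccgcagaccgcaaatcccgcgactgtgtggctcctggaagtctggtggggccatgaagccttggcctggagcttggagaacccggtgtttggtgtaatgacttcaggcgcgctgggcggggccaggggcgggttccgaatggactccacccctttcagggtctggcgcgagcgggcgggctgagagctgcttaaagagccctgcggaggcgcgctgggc
The Kcnj15 window held ACAAAG near its 5′ end, and the Kcnk1 window held CAGGTG, the reverse of CACCTG, and CATTGT, the reverse of ACAATG. The windows of Kcnj2 and Kcnk5 held none of these letters. The Kcnk1 window lies inside the gene by the coordinates used here, which start the gene at 125993655.

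Across the 140 RefSeq windows of the 104 channel genes with an entry, ACAAAG occurred in 15.0% of windows, against 16.5% of all 32851 windows of the same length. The shares for ACAATG were 6.43% of the channel windows and 10.7% of all windows, those for CACCTG were 20.7% and 17.2%, and those for TGAGTCA were 2.14% and 4.46%. No channel window held AACCGGTT, which occurred in 0.116% of all windows. These matches describe letters in a window and not binding.

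Most channel genes had few or no counts. Of the 141 genes, 41 had 0 counts in every library. Among them were the voltage-gated potassium channels Kcna1, Kcna2, Kcna3, Kcna5, Kcna6 and Kcna10, the sodium channel genes Scn1a, Scn7a and Scn9a, and the T-type calcium channel Cacna1h. Another 53 had counts, at most 25 in any library, but too few to test. Of the 47 tested genes, some reached 10 or more counts in all libraries of only 1 group. These were 5 for clone 1, 2 for clone 2 and 6 for the control, while 19 reached that level in all 9 libraries. Others, such as Scn10a, reached it in both clones and not in the control. A filter on counts thus favours genes that differ between groups, so the counts below are descriptions.

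In clone 1, 24 of the 47 tested channel genes were higher than in the control (51.1%) and 14 were lower (29.8%), where 37.9% of all tested genes were higher and 38.6% lower (76.5% in either direction). In clone 2, 18 were higher (38.3%) and 13 lower (27.7%), where 37.3% of all tested genes were higher and 37.1% lower (74.4% in either direction). Both comparisons use the same control libraries. The median log2 fold change of the tested channel genes was 1.48 in clone 1 and 0.06 in clone 2, against 0.002 and -0.003 over all tested genes. With genes at 0 counts in a group set to their bound, the medians were 1.48 and 0.03. Changes tested to exceed a log2 fold change of 1 were found for 32 of the 47 in clone 1 and 21 in clone 2, where 25.7% and 24.3% of all tested genes passed that test. Between the clones, 18 channel genes were higher in clone 1 than in clone 2 and 9 were lower, where 27.5% of all tested genes were higher and 30.1% lower (57.6% in either direction).

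**Figure D1:**
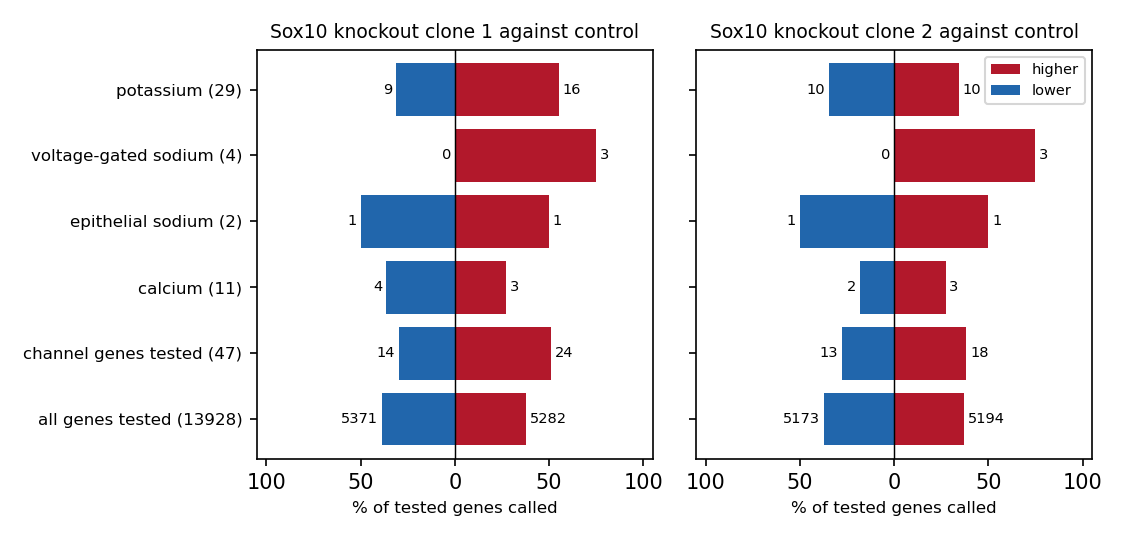
Share of tested genes called higher (right) or lower (left) in clone 1 and in clone 2 against the control, for each channel family and for all 13928 tested genes, in percent of genes tested (adjusted p under 0.05). Of the 29 tested potassium channel genes 16 were higher and 9 lower in clone 1, and 10 were higher and 10 lower in clone 2.

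The channel genes were dominated by few members, and by different ones in the clones and in the control. Together they summed to 1256, 1208 and 1225 CPM in clone 1 and 1227, 1145 and 1214 CPM in clone 2, against 639.0, 730.6 and 772.5 CPM in the control. Kcnj15 took 72.5% to 75.0% of this sum in clone 1 and 70.8% to 75.2% in clone 2, against 4.19% to 4.86% in the control. Without Kcnj15 the order turned round, with a mean sum of 325.7 CPM in clone 1 and 320.6 CPM in clone 2, against 681.7 CPM in the control. That lower sum rested on few genes. Scnn1a, Kcnk1 and Kcnn4, all lower in both clones, held 68.8% of the control's mean sum with Kcnj15 included. By number, 21 channel genes reached 1 CPM in clone 1 and 18 in clone 2, against 15 in the control. Per kilobase of exon, the most abundant channel genes in both clones were Kcnj15, Cacnb3 and Kcnn4, at 156.7, 45.5 and 37.7 CPM per kilobase in clone 1 and 151.7, 41.4 and 35.1 CPM per kilobase in clone 2. In the control they were Kcnn4, Kcnk1, Scnn1a, Cacnb3 and Kcnj15, at 75.7, 73.0, 42.2, 42.1 and 5.603 CPM per kilobase.

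**Figure D2:**
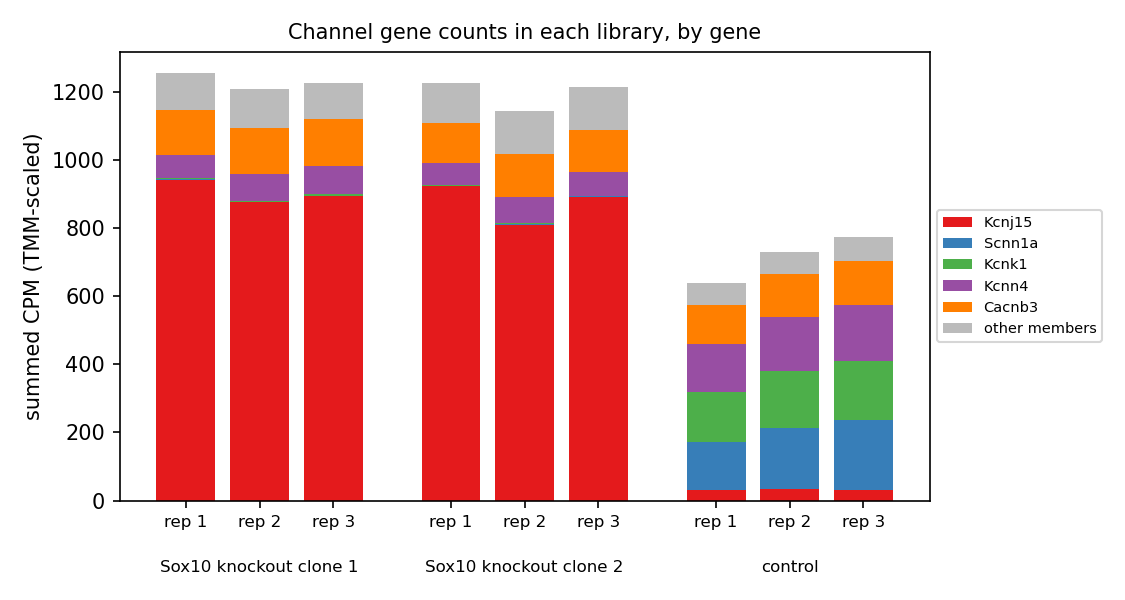
Summed TMM-scaled CPM of all channel genes in each library, stacked by gene, for the 3 libraries of clone 1, clone 2 and the control. Kcnj15 fills most of each clone bar, while Scnn1a, Kcnk1 and Kcnn4 fill most of each control bar.

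Among the inward rectifiers, which pass potassium more easily into the cell than out of it, Kcnj15 rose to become the leading channel transcript and Kcnj2 almost disappeared. Kcnj15 (Entrez ID 16516; chromosome 16, 95257558 to 95300260, plus strand) encodes an inward rectifier known from kidney and other epithelia. Its level was 942, 875 and 894 CPM in clone 1 and 922.5, 810.0 and 892 CPM in clone 2, against 31.1, 33.5 and 32.4 CPM in the control. Every clone library lay far above every control library. The log2 fold change was 4.81 ± 0.07 in clone 1 (SE, adjusted p = 3.51e-13, edgeR) and 4.76 ± 0.07 in clone 2 (adjusted p = 4.5e-13, edgeR), and the difference between the clones, 0.05 ± 0.06, did not pass the test.

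Kcnj2 (Entrez ID 16518; chromosome 11, 111066164 to 111076825, plus strand) encodes the strong inward rectifier that holds the resting potential of muscle and other cells. It had 2, 4 and 0 counts in clone 1 and 8, 2 and 0 counts in clone 2, against 1119, 1068 and 1084 counts in the control. The control mean was 14.7 ± 1.40 CPM (SD, n = 3). The ratio of summed CPM was 515.5-fold lower in clone 1, with a 95% counting interval of 176.1 to 2503, and 346.1-fold lower in clone 2. With so few clone counts single libraries move the fitted value: the log2 fold change was -8.94 in clone 1 and -9.80 without clone 1 replicate 2, and -8.39 in clone 2 and -9.96 without clone 2 replicate 1.

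The other inward rectifiers were low. Kcnj8, the pore of an ATP-sensitive potassium channel of vascular muscle, had 31, 46 and 25 counts in clone 1 and 0 counts in all libraries of clone 2 and of the control, at least 17.98-fold higher in clone 1 than in the control and at least 19.02-fold higher than in clone 2. Abcc9, which encodes the sulphonylurea receptor that assembles with that pore, averaged 28.9 ± 1.23 CPM in clone 1 and 0.0711 ± 0.0229 CPM in clone 2, against 0.126 ± 0.0455 CPM in the control (SD, n = 3 each). Its log2 fold change was 7.84 ± 0.17 in clone 1 (adjusted p = 6.7e-12, edgeR), and -0.79 ± 0.35 in clone 2, which did not pass the test. Kcnj14 was lower in clone 1, at 0.213 CPM in clone 1 and 0.527 CPM in clone 2, against 0.663 CPM in the control (log2 -1.62 ± 0.37 in clone 1, -0.34 ± 0.33 in clone 2, the clone 2 value without a call). Its difference between the clones, called with all libraries, was lost without clone 1 replicate 3 (log2 -1.02) or clone 2 replicate 2 (-1.10). Kcnj9, a G protein-gated subunit, averaged 0.232 CPM in clone 1 and 0.0946 CPM in clone 2, against 0.347 CPM in the control, without a call in either clone. It was called lower in clone 2 when clone 1 replicate 1 (log2 -1.82), clone 1 replicate 2 (-1.82), clone 2 replicate 1 (-2.52) or control replicate 2 (-2.08) was left out. It was also called with the replicate block (-1.94, adjusted p = 0.00426), with DESeq2 (-1.89, adjusted p = 0.0387) and with median-of-ratios scaling (-1.84, adjusted p = 0.0452). Kcnj3, a G protein-gated subunit often measured in breast tumours, had 2 counts in clone 1 in all and 0 in clone 2 and in the control.

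Among the two-pore-domain channels, which carry background potassium current, Kcnk1 and Kcnk5 fell in both clones. Kcnk1 (Entrez ID 16525; chromosome 8, 125993655 to 126030685, plus strand), a weakly conducting background channel of epithelia and brain, had 4.02, 3.53 and 3.998 CPM in clone 1 and 1.42, 1.83 and 1.83 CPM in clone 2, against 148.3, 166 and 175 CPM in the control. The groups did not overlap, and the log2 fold change was -5.41 ± 0.11 in clone 1 (adjusted p = 2.99e-12, edgeR) and -6.59 ± 0.11 in clone 2 (adjusted p = 1.39e-12, edgeR). Clone 1 kept 2.28 times the level of clone 2, a log2 difference of 1.19 ± 0.11 (adjusted p = 5.65e-06, edgeR).

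Kcnk5, an alkaline-activated channel of kidney and other epithelia, had 0 counts in all libraries of both clones, against 313, 360 and 436 counts in the control (chromosome 14, 20140057 to 20181782, minus strand). The bounds were at least 174.8-fold lower for clone 1 and at least 195.6-fold lower for clone 2. Kcnk2, a stretch- and lipid-sensitive channel, averaged 4.01 ± 0.708 CPM in clone 1 and 11.5 ± 0.290 CPM in clone 2, against 13.5 ± 0.597 CPM in the control (SD, n = 3 each). It fell in clone 1 (log2 -1.75 ± 0.12, adjusted p = 1.04e-07, edgeR), while -0.23 ± 0.11 in clone 2 did not pass the test and did so only without clone 1 replicate 3 (adjusted p = 0.0417) or in the fit with the replicate number as a block (0.0312). The clones themselves differed, with clone 1 lower by a log2 value of -1.52 ± 0.12.

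Kcnk4, another mechanosensitive member, averaged 0.244 CPM in clone 1 and 0.309 CPM in clone 2, against 0.0704 CPM in the control, and was called higher in both (log2 1.75 ± 0.71 and 2.09 ± 0.68). The clone 1 call was lost without clone 1 replicate 1 (log2 1.24) or 2 (1.85) or without control replicate 1 (1.40) or 3 (1.77), and the clone 2 call without clone 2 replicate 2 (1.65) or control replicate 1 (1.72). Kcnk7 averaged 0.145 CPM in clone 1 and 0.150 CPM in clone 2, against 0.0992 CPM in the control, with no call, and Kcnk9, a member amplified in some breast tumours, had 0 counts in every library.

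Voltage-gated potassium channels, which open on depolarisation, were low in the control, and Kcna4 and Kcnc1 were higher in clone 1 than in clone 2. Kcna4, a rapidly inactivating channel, had 7.40, 6.89 and 6.06 CPM in clone 1 and 0.444, 0.556 and 0.511 CPM in clone 2, against 0.116, 0.162 and 0.0989 CPM in the control. All 3 groups were apart, with log2 values of 5.74 ± 0.21 (clone 1) and 1.99 ± 0.25 (clone 2) (adjusted p = 4.28e-10 and 2.22e-05, edgeR) and a log2 difference between the clones of 3.75 ± 0.17. Kcnc1, a fast-spiking channel, had 16, 38 and 20 counts in clone 1 and 4, 2 and 0 in clone 2, against 0 in all control libraries, at least 13.04-fold higher in clone 1. In clone 2 it was not called, and it was called when clone 2 replicate 3 was left out (adjusted p = 0.0346) or with DESeq2 (0.0476).

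The electrically silent subunits, which form no channel alone and modify Kcnb channels, parted the clones. Kcnf1 had 2.38, 1.84 and 2.44 CPM in clone 1 and 0.0240, 0.0265 and 0.0255 CPM in clone 2, against 0.289, 0.230 and 0.272 CPM in the control. It rose in clone 1 (log2 3.06 ± 0.22, adjusted p = 1.75e-07, edgeR) and fell in clone 2 (-3.30 ± 0.40, adjusted p = 1.59e-05, edgeR). In clone 2 the ratio was 10.4-fold lower than in the control, with a 95% counting interval of 3.291 to 54.18. The clones differed 87.09-fold, with a 95% counting interval of 29.5 to 426.3 that reflects 6 counts in all of clone 2. Kcns2 had 46, 57 and 48 counts in clone 1 and 0 in all libraries of clone 2 and of the control, at least 26.61-fold higher in clone 1 than in the control.

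In the EAG family, Kcnh1, a channel found outside the brain mostly in tumours, rose in clone 1 and Kcnh2, the channel of cardiac repolarisation, rose in both clones. Kcnh1 had 12.2, 12.6 and 12.1 CPM in clone 1 and 0.588, 0.649 and 0.639 CPM in clone 2, against 0.477, 0.406 and 0.779 CPM in the control. Clone 1 stood above both other groups, which overlapped each other. The log2 fold change was 4.46 ± 0.19 in clone 1 (adjusted p = 1.64e-09, edgeR) and 0.16 ± 0.22 in clone 2, which passed the test only without control replicate 3 (0.49). Kcnh2 had 5.66, 6.54 and 5.63 CPM in clone 1 and 10.7, 11.1 and 11.9 CPM in clone 2, against 0.260, 0.338 and 0.420 CPM in the control. Its log2 fold changes were 4.11 ± 0.16 and 5.03 ± 0.16 (adjusted p = 8.16e-10 and 1.44e-10, edgeR), and clone 1 was lower than clone 2 by a log2 value of -0.92 ± 0.12. Kcnh7, too low to test, had 0 counts in both clones, against 25, 5 and 14 counts in the control.

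Kcnq1, which forms an epithelial potassium channel with Kcne3, had 0, 9 and 2 counts in clone 1 and 2, 4 and 2 counts in clone 2, against 80, 152 and 193 counts in the control. It fell in both clones, by log2 values of -5.14 ± 0.56 (clone 1) and -5.72 ± 0.59 (clone 2) (adjusted p = 6.38e-06 and 3.92e-06, edgeR), and -6.83 in clone 1 without clone 1 replicate 2. The clone 2 ratio was 56.21-fold lower, with a 95% counting interval of 21.69 to 208.7. Kcnq1ot1, the noncoding RNA read from the opposite strand inside Kcnq1 that is known to silence neighbouring genes of this imprinted region, averaged 4.71 ± 1.03 CPM in clone 1 and 1.94 ± 0.634 CPM in clone 2, against 0.839 ± 0.155 CPM in the control (SD, n = 3 each). It rose in both (log2 2.49 ± 0.27 and 1.22 ± 0.27, adjusted p = 5.7e-06 and 0.00183, edgeR). The transcripts share 3.995% of the exon bases of Kcnq1, and the strand setting of the counting was not stated, so reads of the shared part may belong to either.

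Kcne3 averaged 0.111 CPM in clone 1 and 0.0493 CPM in clone 2, against 0.201 CPM in the control. It was called lower in clone 2 (log2 -1.95 ± 0.65) and not in clone 1 (-0.81 ± 0.58). The clone 2 call was lost without clone 2 replicate 2 (-1.70) or 3 (-1.64) or control replicate 1 (-1.63), and the value was -2.85 without clone 2 replicate 1.

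**Figure D3:**
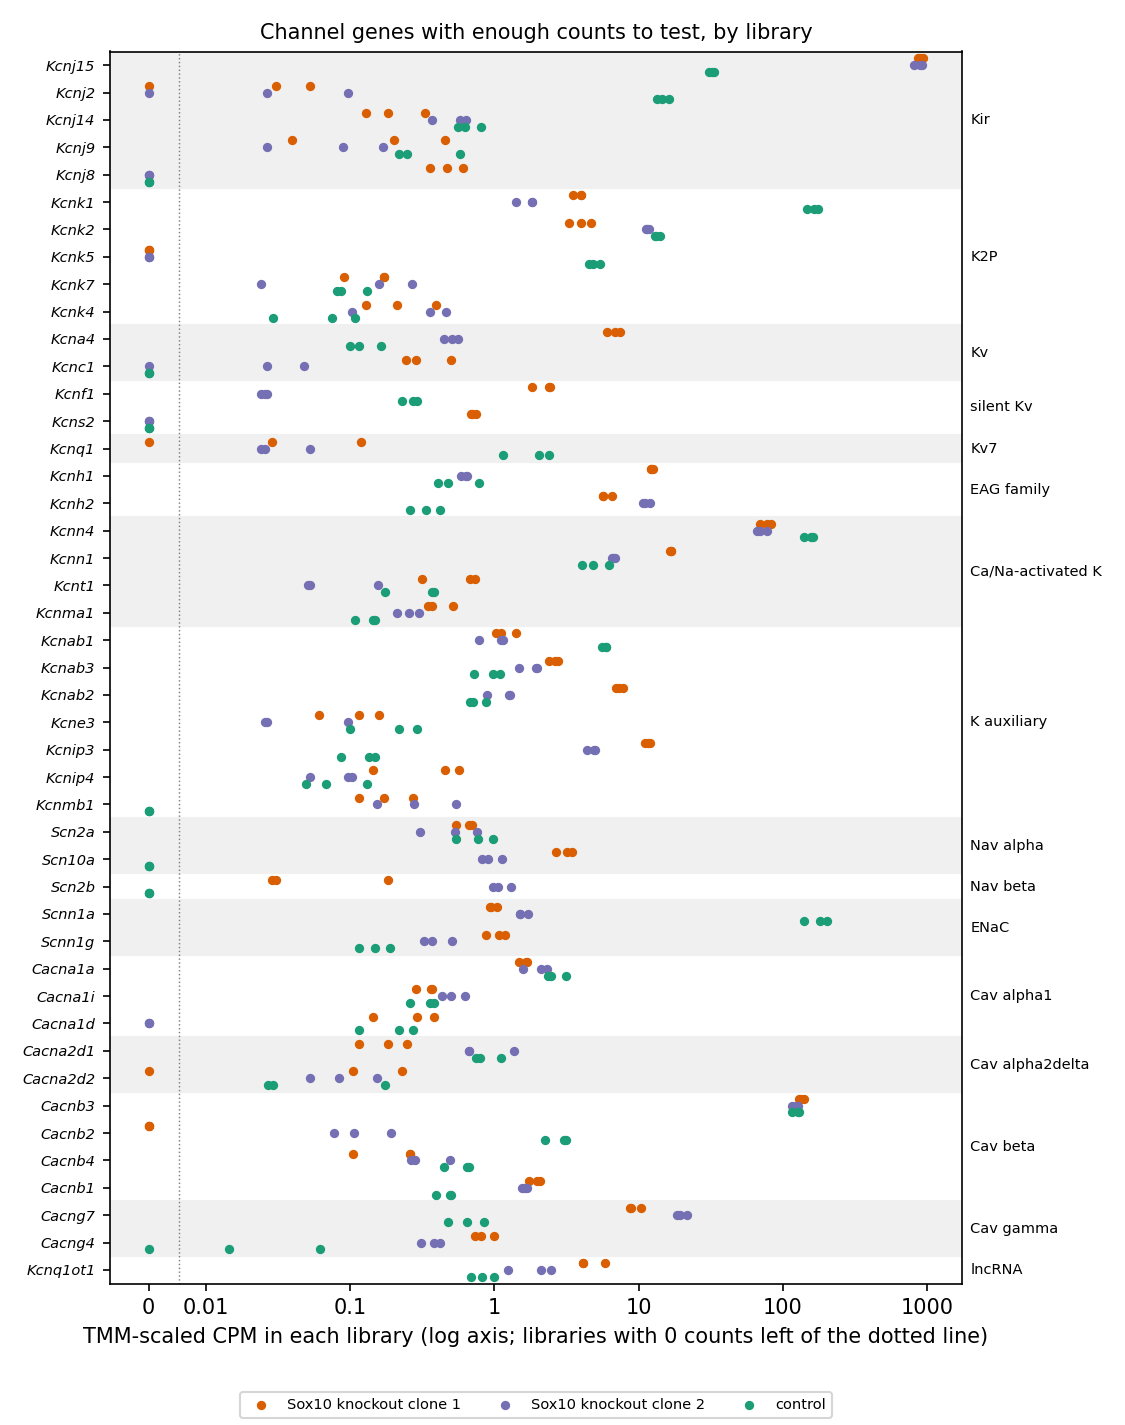
TMM-scaled CPM of the tested channel genes named in the text in each of the 9 libraries, on a log axis, with 0 counts drawn left of the dotted line. Kcnj15 lies between 810.0 and 942 CPM in the 6 clone libraries, and Kcnk1 and Scnn1a lie above 100 CPM in the control libraries alone.

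The calcium-activated potassium channels included 1 abundant member in every group. Kcnn4 (Entrez ID 16534; chromosome 7, 24369826 to 24385212, plus strand), the intermediate-conductance channel of epithelia and lymphocytes, had 69.1, 77.8 and 82.5 CPM in clone 1 and 66.9, 77.6 and 69.4 CPM in clone 2, against 139.6, 158 and 164 CPM in the control. Both clones lay below the control and overlapped each other. The log2 fold change was -1.01 ± 0.08 in clone 1 and -1.11 ± 0.08 in clone 2 (adjusted p = 6.02e-07 and 2.74e-07, edgeR). The median log2 fold change of the 1079 tested genes on chromosome 7 was -0.43 in clone 1 and -0.42 in clone 2, and its part in this result was not tested.

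Kcnn1, a small-conductance channel mostly of neurons, averaged 16.8 ± 0.283 CPM in clone 1 and 6.69 ± 0.166 CPM in clone 2, against 5.02 ± 1.10 CPM in the control (SD, n = 3 each). It rose in clone 1 by a log2 value of 1.73 ± 0.13. The smaller rise in clone 2, 0.41 ± 0.13, was lost without clone 2 replicate 2 (0.36) or control replicate 1 (0.25) or 2 (0.37). Kcnt1, a sodium-activated channel, averaged 0.575 CPM in clone 1 and 0.0867 CPM in clone 2, against 0.308 CPM in the control. It was 6.501-fold higher in clone 1 than in clone 2 (log2 2.69 ± 0.54, adjusted p = 0.00128, edgeR). Against the control it was called lower in clone 2 (-1.80 ± 0.56), a call lost without clone 2 replicate 3 (-1.53), with a value of -2.53 without clone 2 replicate 1. In clone 1 it was not called, and it was called higher without clone 1 replicate 3 (1.18).

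Kcnma1, the large-conductance channel, averaged 0.409 CPM in clone 1 and 0.256 CPM in clone 2, against 0.134 CPM in the control. It was higher in clone 1 (log2 1.60 ± 0.35, adjusted p = 0.00145, edgeR). In clone 2 the log2 value was 0.93 ± 0.36 (adjusted p = 0.0364, edgeR), and this call was lost without clone 1 replicate 2, without any 1 of the clone 2 or control replicates, and with no filter, DESeq2 or the replicate block, with values of 0.79 to 1.02. Its accessory subunit Kcnmb1, known from smooth muscle, had 18, 13 and 8 counts in clone 1 and 23, 41 and 12 in clone 2, against 0 in all control libraries, at least 6.874-fold higher in clone 1 and at least 11.97-fold higher in clone 2. The fitted value in clone 2 moved to a log2 of 6.996 without clone 2 replicate 2, against 7.60 with it. Lrrc26, an epithelial partner that lets this channel open near the resting potential, averaged 0.420 CPM in clone 1 and 0.705 CPM in clone 2, against 15.8 CPM in the control (log2 -5.23 ± 0.25 and -4.49 ± 0.23).

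Accessory subunits of voltage-gated potassium channels changed in both directions. Kcnip3, a calcium-binding subunit of Kcnd channels that is also known as a transcriptional repressor, had 11.1, 11.9 and 11.7 CPM in clone 1 and 4.96, 4.42 and 4.88 CPM in clone 2, against 0.0867, 0.135 and 0.148 CPM in the control. It rose by log2 values of 6.52 ± 0.16 and 5.23 ± 0.17 (adjusted p = 2.07e-11 and 1.6e-10, edgeR), and the clones differed by 1.29 ± 0.11. Its pore partners were at or near 0: Kcnd2 had 0 counts in every library, Kcnd1 had 4 counts in clone 1, 4 in clone 2 and 6 in the control, and Kcnd3 had 2, 0 and 0 in the same order. Kcnip4 averaged 0.387 CPM in clone 1 and 0.0837 CPM in clone 2, against 0.0823 CPM in the control, and was called higher in clone 1 (log2 2.24 ± 0.58).

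Of the 3 cytoplasmic beta subunits, which modify inactivation of Kcna channels, Kcnab1 fell in both clones while Kcnab2 and Kcnab3 were called higher. Kcnab1 averaged 1.18 ± 0.202 CPM in clone 1 and 1.02 ± 0.204 CPM in clone 2, against 5.82 ± 0.229 CPM in the control (SD, n = 3 each), and fell by 2.30 and 2.52 on the log2 scale. Kcnab2 had 6.99, 7.86 and 7.35 CPM in clone 1 and 0.888, 1.27 and 1.29 CPM in clone 2, against 0.708, 0.676 and 0.877 CPM in the control. It rose in clone 1 (log2 3.29 ± 0.18, adjusted p = 1.16e-08, edgeR). The clone 2 value of 0.60 ± 0.19 lost its call without clone 2 replicate 2 (0.50) or control replicate 2 (0.52). Kcnab3 averaged 2.60 CPM in clone 1 and 1.80 CPM in clone 2, against 0.928 CPM in the control, and rose in both (log2 1.48 ± 0.19 and 0.95 ± 0.19). Its difference between the clones, 0.54 ± 0.18, lost its call without clone 1 replicate 1 (0.53) or 2 (0.49) or clone 2 replicate 1 (0.42).

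**Figure D4:**
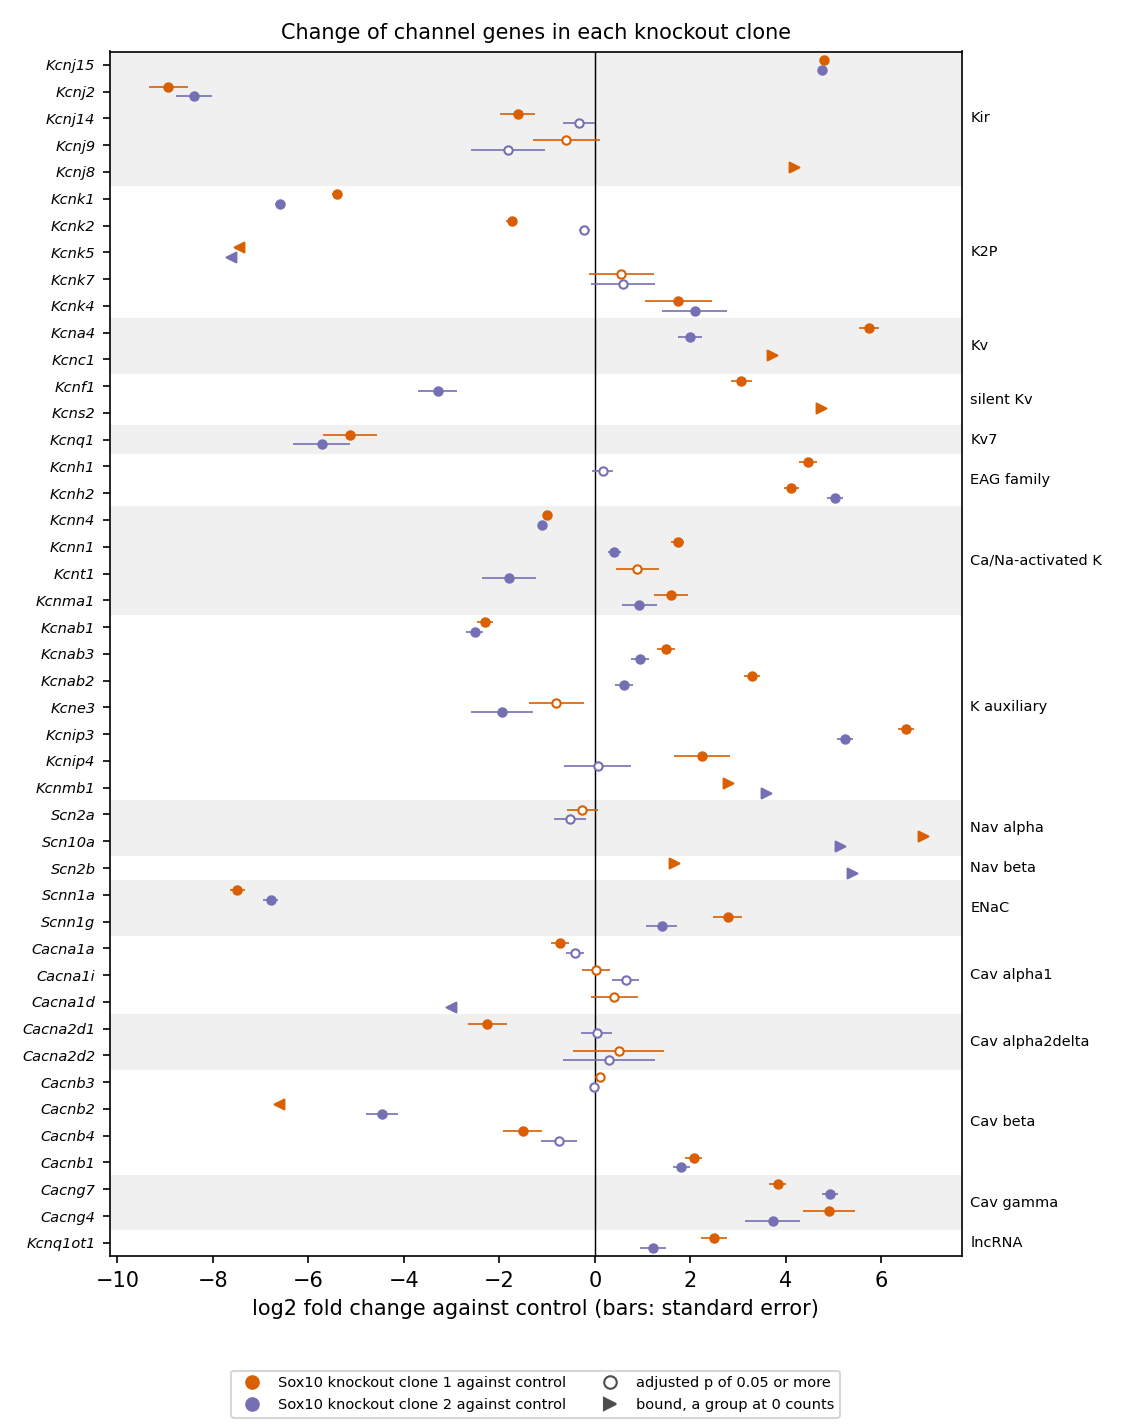
Log2 fold change of the tested channel genes named in the text in clone 1 and in clone 2 against the control, with standard errors as bars; filled points passed the test, and triangles are bounds where a group had 0 counts. Kcnj15 lies near 4.8 in both clones, while Kcnf1 lies at 3.06 in clone 1 and -3.30 in clone 2.

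Of the voltage-gated sodium channels, 3 of the 4 tested genes were higher in both clones and none was lower, where 37.9% of all tested genes were higher in clone 1 and 37.3% in clone 2. Scn10a and Scn2b had 0 counts in the control, so they could be tested only through the clones. Scn10a and Scn11a, channels of pain-sensing neurons, lie on the minus strand of chromosome 9, at 119608456 to 119719322 and 119753763 to 119825456. Scn10a had 176, 265 and 223 counts in clone 1 and 68, 85 and 71 counts in clone 2, against 0 in all control libraries, at least 117-fold higher in clone 1 and at least 35.28-fold higher in clone 2. Clone 1 was the higher clone, by 1.72 ± 0.20 on the log2 scale (adjusted p = 8.39e-05, edgeR). Scn11a, too low to test, had 12, 6 and 8 counts in clone 1 and 0, 2 and 0 in clone 2, against 0 in all control libraries. The median log2 fold change of the 771 tested genes on chromosome 9 was 0.09 in clone 1 and 0.43 in clone 2, and its part in these results was not tested.

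Scn2b, an accessory beta subunit with an adhesion domain, had 2, 14 and 2 counts in clone 1 and 82, 80 and 102 counts in clone 2, against 0 in all control libraries. It was at least 3.172-fold higher in clone 1, where most counts came from replicate 2, and at least 41.58-fold higher in clone 2. Without clone 1 replicate 2 the fitted value of clone 1 was lower (log2 4.22, against 5.68 with it) and the clone difference was -5.16, against -3.70 with it. Scn2a, a neuronal channel, averaged 0.636 CPM in clone 1 and 0.531 CPM in clone 2, against 0.761 CPM in the control, with no call in either clone, and was called lower in clone 2 when clone 2 replicate 1 was left out (log2 -0.87). Scn8a had 2 counts in clone 1, 2 in clone 2 and 0 in the control.

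The epithelial sodium channel, built from alpha, beta and gamma subunits, lost its only abundant transcript. Scnn1a (Entrez ID 20276; chromosome 6, 125314271 to 125344943, plus strand), the pore-forming alpha subunit, had 0.925, 0.945 and 1.05 CPM in clone 1 and 1.51, 1.72 and 1.49 CPM in clone 2, against 140.0, 180.3 and 203 CPM in the control. The log2 fold change was -7.48 ± 0.16 in clone 1 and -6.79 ± 0.15 in clone 2 (adjusted p = 5.55e-12 and 7.14e-12, edgeR), and clone 1 was lower than clone 2 by -0.69 ± 0.18 (adjusted p = 0.00723, edgeR). The gamma subunit Scnn1g, which was low everywhere, had 0.880, 1.08 and 1.19 CPM in clone 1 and 0.324, 0.371 and 0.511 CPM in clone 2, against 0.116, 0.189 and 0.148 CPM in the control. It rose by log2 values of 2.78 ± 0.30 and 1.40 ± 0.33 (adjusted p = 6.37e-06 and 0.00233, edgeR). The beta subunit Scnn1b, too low to test, had 0 counts in clone 1 and 0, 2 and 2 in clone 2, against 2, 2 and 5 in the control.

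Genes that act on this channel also changed. Prss8, the membrane protease that activates it by cleavage, averaged 2.31 ± 0.412 CPM in clone 1 and 2.07 ± 0.369 CPM in clone 2, against 40.3 ± 5.78 CPM in the control (SD, n = 3 each), and fell by 4.12 and 4.28 on the log2 scale. Nedd4l, the ubiquitin ligase that removes it from the membrane, averaged 32.4 CPM in clone 1 and 9.98 CPM in clone 2, against 60.8 CPM in the control (log2 -0.91 ± 0.07 and -2.61 ± 0.08). Sgk1, the kinase that restrains that ligase, averaged 138.2 CPM in clone 1 and 109.5 CPM in clone 2, against 159.0 CPM in the control (log2 -0.20 ± 0.05 and -0.54 ± 0.05).

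Voltage-gated calcium channels consist of a pore-forming alpha1 subunit with alpha2delta and beta subunits, of which the beta subunit lies in the cytoplasm. Cacnb3, a beta subunit (Entrez ID 12297; chromosome 15, 98628436 to 98644536, plus strand) had 129.8, 135.0 and 139.6 CPM in clone 1 and 116, 128 and 124 CPM in clone 2, against 115.4, 128 and 131 CPM in the control. Each clone overlapped the control, while every clone 1 library lay above every clone 2 library. Neither log2 fold change, 0.11 ± 0.06 in clone 1 and -0.02 ± 0.06 in clone 2, passed the test. The clone 1 value passed with the replicate block (0.11, adjusted p = 0.01, edgeR). The clones differed by 0.14 ± 0.06, which passed only in some fits: without clone 2 replicate 2 (0.19), without control replicate 1 (0.16), with scaling to total counts (0.13), under the stricter filter (0.16) and with the replicate block (0.14).

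The other beta subunits were lower and changed in both directions. Cacnb2, known from heart, had 0 counts in clone 1 and 16, 8 and 6 counts in clone 2, against 216, 226 and 183 counts in the control. Clone 1 was lower by at least 98.5-fold and clone 2 by 22.04-fold (log2 -4.46 ± 0.33, adjusted p = 1.21e-06, edgeR). Cacnb1, known from skeletal muscle, averaged 1.94 ± 0.172 CPM in clone 1 and 1.62 ± 0.0674 CPM in clone 2, against 0.462 ± 0.0580 CPM in the control (SD, n = 3 each), and rose by log2 values of 2.07 ± 0.18 and 1.81 ± 0.18. Cacnb4, known from brain, averaged 0.207 CPM in clone 1 and 0.346 CPM in clone 2, against 0.588 CPM in the control. It fell in clone 1 (log2 -1.52 ± 0.40), while -0.76 ± 0.37 in clone 2 passed the test only without clone 2 replicate 1 (-1.10).

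Of the 10 alpha1 genes 3 could be tested. None was called higher, where 37.9% of all tested genes were higher in clone 1 and 37.3% in clone 2. Cacna1a, a presynaptic channel, averaged 1.61 ± 0.103 CPM in clone 1 and 2.00 ± 0.388 CPM in clone 2, against 2.66 ± 0.430 CPM in the control (SD, n = 3 each). It fell in clone 1 (log2 -0.73 ± 0.19, adjusted p = 0.00392, edgeR), while -0.41 ± 0.18 in clone 2 passed only without clone 2 replicate 2 (-0.57), under the stricter filter (-0.44) or with the replicate block (-0.42). Cacna1d, an L-type channel, had 25, 22 and 10 counts in clone 1 and 0 in clone 2, against 8, 16 and 22 in the control, at least 8.112-fold lower in clone 2 than in the control and at least 10.63-fold higher in clone 1 than in clone 2. Cacna1i, a T-type channel, averaged 0.339 CPM in clone 1 and 0.520 CPM in clone 2, against 0.332 CPM in the control, with no call. The cardiac L-type gene Cacna1c had 0 counts in both clones and 8 in the control, and the T-type gene Cacna1g had 2 counts in clone 1 and 0 in the other groups.

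The remaining calcium channel genes encode alpha2delta and gamma subunits. Cacna2d1, a trafficking subunit and gabapentin target, had 0.182, 0.249 and 0.115 CPM in clone 1 and 1.37, 0.662 and 0.664 CPM in clone 2, against 1.11, 0.798 and 0.742 CPM in the control. It fell in clone 1 (log2 -2.25 ± 0.41, adjusted p = 0.00036, edgeR) and was 0.03 ± 0.33 in clone 2. Cacna2d2 averaged 0.111 CPM in clone 1 and 0.0967 CPM in clone 2, against 0.0763 CPM in the control, with no call. Cacng7, a gamma subunit that also accompanies AMPA receptors, had 8.70, 10.5 and 8.84 CPM in clone 1 and 18.6, 21.8 and 19.4 CPM in clone 2, against 0.650, 0.473 and 0.840 CPM in the control. It rose by log2 values of 3.82 ± 0.17 and 4.92 ± 0.17 (adjusted p = 2.56e-09 and 3.18e-10, edgeR), on chromosome 7, where the medians given with Kcnn4 were below 0.

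Cacng4, of the same kind, had 48, 76 and 56 counts in clone 1 and 26, 29 and 33 in clone 2, against 1, 0 and 5 in the control. The ratio was 31.72-fold higher in clone 1 (95% counting interval 10.51 to 156.7) and 13.86-fold higher in clone 2 (4.443 to 69.78). Without control replicate 3 the log2 values were 6.60 in clone 1 and 5.42 in clone 2, against 4.90 and 3.72 with it, and the clone difference of 1.18 ± 0.36 lost its call without clone 1 replicate 2 (1.04). Cacng6, too low to test, had 0 counts in clone 1 and 2, 5 and 8 in clone 2, against 6, 10 and 6 in the control.

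Partners and regulators of potassium, sodium and calcium channels, in the cytoplasm or the membrane, were measured from a list of 26 genes. The list includes Abcc9, Lrrc26, Prss8, Nedd4l and Sgk1, given above. Of the 26 genes, 13 could be tested. In clone 1, 5 of them were higher and 7 lower, and in clone 2, 4 were higher and 5 lower, with median log2 fold changes of -0.20 and -0.23. Over all tested genes, 76.5% were called in either direction in clone 1 and 74.4% in clone 2. Stac2, which binds L-type channels and slows their inactivation, averaged 157 ± 6.08 CPM in clone 1 and 116 ± 1.66 CPM in clone 2, against 1.70 ± 0.208 CPM in the control (SD, n = 3 each), rising by log2 values of 6.53 ± 0.08 and 6.10 ± 0.08 (adjusted p = 2.06e-13 and 3.05e-13, edgeR). Rem2, a small GTPase that inhibits calcium channels, averaged 0.0769 CPM in clone 1 and 3.05 CPM in clone 2, against 4.003 CPM in the control. It fell in clone 1 (log2 -5.70 ± 0.29), and the clone 2 value of -0.39 ± 0.18 did not pass the test. Fgf11, a cytoplasmic partner of sodium channels, averaged 9.83 CPM in clone 1 and 6.74 CPM in clone 2, against 3.25 CPM in the control, and rose in both (log2 1.60 ± 0.10 and 1.05 ± 0.10). Ank3, which anchors sodium and potassium channels, averaged 21.2 CPM in clone 1 and 32.6 CPM in clone 2, against 34.7 CPM in the control, and fell in clone 1 (log2 -0.71 ± 0.06).

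Since many of these channels are known from excitable tissue, markers of other cell types were measured in the same libraries. Of 8 neuron markers, Snap25, Syt1, Stmn2 and Nefl had 0 counts in every library, and the summed level was 38.3 to 42.3 CPM in clone 1 and 49.8 to 59.1 CPM in clone 2, against 130.1 to 151.6 CPM in the control. Most of that sum was Map2, a microtubule protein, which averaged 39.2 CPM in clone 1 and 42.0 CPM in clone 2, against 139.6 CPM in the control, and fell in both. Syn1, a synaptic vesicle protein, averaged 0.594 CPM in clone 1 and 8.88 CPM in clone 2, against 0.684 CPM in the control, and rose in clone 2 only (log2 3.69 ± 0.15), the clone 1 value (-0.21 ± 0.18) having no call. Rbfox3, a neuronal splicing factor, had 10 counts in clone 1 and 509 in clone 2, against 0 in the control, and was called higher in both. It could be tested only through clone 2. In clone 1 it averaged 0.0483 ± 0.0594 CPM (SD, n = 3), so that call (adjusted p = 0.0321, edgeR) rested on few counts. Of 8 muscle markers, Actn2 and Myog had 0 counts in every library, and the sum was 20.9 to 22.3 CPM in clone 1 and 4.67 to 5.89 CPM in clone 2, against 0.828 to 1.30 CPM in the control. The 8 Schwann cell and glial markers summed to 449 to 460.4 CPM in clone 1 and 325 to 329 CPM in clone 2, against 366 to 462 CPM in the control, with Foxd3 at 0 counts throughout. This list holds Sox10 itself, and its members moved in opposite directions. Pmp22, a myelin protein also made by other cells, averaged 424 CPM in clone 1 and 289.0 CPM in clone 2, against 16.4 CPM in the control, and rose in both (log2 4.70 ± 0.05 and 4.14 ± 0.05). Mbp, a myelin protein, averaged 27.9 CPM in clone 1 and 37.8 CPM in clone 2, against 115.5 CPM in the control, and fell in both (log2 -2.05 ± 0.07 and -1.61 ± 0.07). Sox10 averaged 0.0262 CPM in clone 1 and 0.0173 CPM in clone 2, against 284.1 CPM in the control.

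The 6 endothelial markers summed to 15.9 to 18.2 CPM in clone 1 and 0.816 to 1.09 CPM in clone 2, against 0 to 0.108 CPM in the control, with Cldn5 at 0 counts throughout. The 8 fibroblast markers summed to 217 to 223 CPM in clone 1 and 136 to 150.1 CPM in clone 2, against 30.3 to 35.9 CPM in the control, with Lum and Thy1 at 0 counts throughout. The 8 immune markers summed to 9.71 to 11.4 CPM in clone 1 and 43.5 to 46.0 CPM in clone 2, against 7.44 to 12.7 CPM in the control, with Cd3e at 0 counts throughout. The labels call the cells mammary epithelial, and the 8 luminal epithelial markers summed to 1109 to 1261 CPM in clone 1 and 1362 to 1543 CPM in clone 2, against 5795 to 6930 CPM in the control, with all 7 tested markers lower in each clone, where 38.6% of all tested genes were lower in clone 1 and 37.1% in clone 2. Kdr, nearly all of the endothelial sum of clone 1, averaged 16.2 CPM there, 0.484 CPM in clone 2 and 0.0186 CPM in the control. Myh1, most of the muscle sum of clone 1, averaged 19.4, 2.76 and 0.383 CPM in the same order. Pdgfra, most of the fibroblast sum of each clone, averaged 172.3, 107.2 and 7.83 CPM. Cd68, most of the immune sum of each clone, averaged 9.80, 38.6 and 10.1 CPM. Of the 5 tested fibroblast markers, 5 were higher in clone 1 and 4 in clone 2. The 2 tested endothelial markers were higher in each clone, as were 3 of the 5 tested muscle markers. Of 3 tested immune markers, 1 was higher and 1 lower in clone 1, and 2 were higher and 1 lower in clone 2. Some of these markers had 0 counts in the control. Over all tested genes, 37.9% were higher in clone 1 and 37.3% in clone 2. Pecam1, Cdh5, Tek and Ptprc were too low to test. The part of these marker levels in the channel results was not tested.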

How the data were processed

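The deposited unit is counts: whole-number gene counts of 9 stranded, polyA-enriched libraries, which the authors deposited without normalization. Per the submitters' processing notes the tools were fastp, Subread and DESeq2 and the builds mm10 and GRCm38; for versions, the annotation, the strand setting and the counting of read pairs, the sources used here give nothing. Symbols and coordinates were looked up by Entrez ID in a reference gene annotation. Strands and exon lengths come from GENCODE M21, and promoters from RefSeq (GRCm38.p6). The 24 of 24594 genes without a symbol held 0.13% to 0.202% of counts.

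Counts were fitted in R 4.3.3 with edgeR 4.0.16 (filterByExpr with a minimum count of 10, TMM, quasi-likelihood test with 3 groups fitted together on 9 libraries, Benjamini-Hochberg adjustment over 13928 genes, common coefficient of variation 0.0879). Contrasts were each clone minus control and clone 1 minus clone 2; a change beyond a log2 fold change of 1 was tested with glmTreat. Standard errors are the absolute log2 fold change over the square root of F. On simulated counts of clone 1 against control, with 13218 genes tested, 52 of 67 genes with a 1.5-fold change were called, 66 of 67 with a 2-fold change and 66 of 66 with a 4-fold change, while 8 of 192 calls were false. The changed genes all lay above 1 CPM in the control, a level that 15 of the 141 channel genes reached. Far fewer genes were changed than were called in the data. These rates therefore do not carry over to lower genes or to so many changes. Technical replicates differed beyond sampling noise (chi-square per gene 5.478 to 49.21), so none was counted as a duplicate.

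Of the counts from 1 to 20, 68.8% to 74.5% were even, against 49.2% to 50.9% above 100, for a reason that was not tested. Floors therefore stand at 6 counts over a group (3 fragments), and 95% counting intervals use counts divided by 2, given where the lower group had 1 to 9 counts. Both describe counting error alone, because PCR copies cannot be told from independent molecules here.

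The channel genes and all lists were chosen with earlier results of these data known. Named first were members called in both clones with the largest smaller change (12 per direction, at least 0.5 CPM in a group), those with the largest clone differences, those called in opposite directions, the most abundant, the epithelial sodium channel genes, 17 chosen by name, and those with 10 or more counts in a library of 1 group and 0 in another group; the other tested members are given for completeness. A few channel and list genes are left unreported and undrawn by name, while counts and sums include them. Alternatives were other scalings, no filter, a stricter filter, DESeq2 1.42.0, a replicate block and leaving out each library.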

Additional observations from a re-analysis of the deposited data

Results flagged for a closer look

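Kcnf1, an electrically silent potassium channel subunit, was the only named channel gene called in opposite directions in the clones with a clone difference tested to exceed a log2 fold change of 1. It was higher in clone 1 than in the control and lower in clone 2 than in the control, and the log2 difference of clone 1 minus clone 2 was 6.36 ± 0.32 (adjusted p = 3.28e-08, edgeR). Clone 1 held 157, 140 and 170 counts and clone 2 held 2 counts in each library, against 20, 17 and 22 counts in the control. Single libraries far from their group were not looked for gene by gene, since each group held 3. Differences of replicate 1 over all genes are given below.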

How the results depend on the processing

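The counts of channel genes called kept within 1.5 times of those reported under every alternative run but one. Under the stricter filter (1 CPM in at least 3 libraries), which left 26 channel genes to test, 14 were higher in clone 1 than in the control, against 24 reported, and 11 were higher in clone 1 than in clone 2, against 18 reported; fewer genes could be called by construction. Leaving out each library in turn gave 23 to 25 higher and 14 to 16 lower in clone 1, 14 to 18 higher and 13 to 18 lower in clone 2, and 16 to 19 higher and 8 to 9 lower between the clones. Of 2052 alternative values for 141 gene comparisons, 1997 stayed on their side of the threshold, 31 lost a call and 24 gained one. No called value changed sign; 31 values of 11 genes, with no call, did.

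The correlation of deviations between same-numbered libraries was positive in all 9 pairs (0.0143 to 0.249; 0.214, 0.218 and 0.249 for replicate 1) but not above 0.1 in every pair, and not every library correlated best with its own number, so the numbers were not treated as pairing. Replicate 1 stood apart in every group. It correlated negatively with replicates 2 and 3 of the other groups (-0.212 to -0.0483), partly by construction, as deviations within a group cancel out. The chi-square per gene was 25.5 to 49.21 for pairs with replicate 1, against 5.478 to 9.977 between replicates 2 and 3. The reason was not tested. Over all genes the replicate block raised the calls to 5729 higher and 5691 lower in clone 1, against 5282 and 5371 without it. With the replicate block, 25 channel genes were higher and 14 lower in clone 1, 17 higher and 16 lower in clone 2, and 19 higher and 9 lower between the clones. With DESeq2 the counts were 25 and 17, 18 and 16, and 19 and 10. DESeq2 tested more channel genes, 73 in each clone and 67 between the clones, against 47 in the main fit. Over the 16177 genes it tested, 5222 were higher and 5640 lower in clone 1, and 5111 and 5423 in clone 2. With no filter 100 channel genes were tested. Depth limits the genes under the floor of 6 counts over a group, for which a lower level was not detectable.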

Other observations

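Other ion channels and the pumps that build the gradients were measured from lists of 41 and 20 genes. Of the 32 channels tested, 15 were higher and 12 lower in clone 1, and 12 were higher and 12 lower in clone 2, where 76.5% of all tested genes were called in either direction in clone 1 and 74.4% in clone 2. Hcn2, a pacemaker channel, averaged 0.129 CPM in clone 1 and 0.00883 CPM in clone 2, against 19.6 CPM in the control, and fell in both (log2 -7.25 ± 0.24 in clone 1, with 2 counts left over the 3 libraries of clone 2). Trpv4, an osmosensitive calcium channel, averaged 68.0 CPM in clone 1 and 46.2 CPM in clone 2, against 289.9 CPM in the control (log2 -2.09 ± 0.07 and -2.65 ± 0.07). Trpc1, a subunit of receptor-operated cation channels, averaged 3.84 CPM in clone 1 and 5.31 CPM in clone 2, against 0.199 CPM in the control (log2 4.27 ± 0.24 and 4.74 ± 0.23). Itpr2, an intracellular calcium release channel, averaged 80.9 CPM in clone 1 and 36.5 CPM in clone 2, against 13.1 CPM in the control (log2 2.62 ± 0.09 and 1.47 ± 0.09).

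Of the 17 pump and transporter genes tested, 10 were higher and 6 lower in clone 1, and 8 were higher and 7 lower in clone 2, to be read against the same shares. Atp1b1, a beta subunit of the sodium pump, had 0 counts in both clones, against a mean of 13.1 CPM in the control, while Atp1b3, another beta subunit, averaged 198.9 CPM in clone 1 and 203.3 CPM in clone 2, against 130.2 CPM in the control (log2 0.61 ± 0.05 and 0.64 ± 0.05). Atp2c2, a secretory pathway calcium pump of mammary epithelium, averaged 0.509 CPM in clone 1 and 0.531 CPM in clone 2, against 35.0 CPM in the control (log2 -6.11 ± 0.16 and -6.04 ± 0.16).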
